A study of Homo sapiens with 9 samples.

Results

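The replication-dependent histone genes were examined in RNA-seq libraries of TE13, a human esophageal squamous cell carcinoma line. The genes were taken by symbol (H1-1 to H1-6 and every symbol of the H2AC, H2BC, H3C and H4C series), which gave 66 of the 60605 rows of the deposited table: 6 H1, 16 H2A, 17 H2B, 13 H3 and 14 H4 genes, of which 55 lie on chromosome 6 and 11 on chromosome 1. The cells had been transfected with a control siRNA, with PARylator siRNA.1 or with PARylator siRNA.2, with 3 libraries per group and 9 in all, described by the submitters as biological replicates. PARylator is the study's name for the long noncoding RNA LINC00885, and both siRNAs were compared with the control to see how its knockdown altered the transcriptome. All libraries came from the same cell line and were prepared from RNA captured on oligo(dT), so RNAs without a poly(A) tail were selected against in every group.

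Histone proteins package DNA, with H2A, H2B, H3 and H4 forming the nucleosome core and H1 binding the linker DNA. The replication-dependent genes supply the bulk of these proteins during S phase, and their mRNAs are unusual in that most are not polyadenylated. Their 3′ end is cut a few bases after a conserved stem-loop, which is bound by the stem-loop-binding protein SLBP and recognised together with the U7 snRNP. Poly(A) RNA-seq therefore sees mainly the transcripts of these genes that end at a poly(A) site further downstream, and the counts below are levels of captured RNA, not of all histone mRNA.

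The stem-loop was the sequence that all the genes had in common. The commonest 16-base hairpin after their stop codons was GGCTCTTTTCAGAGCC among the H1, H2A, H2B and H3 genes and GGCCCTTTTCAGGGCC among the H4 genes. A match to either form with up to 2 mismatches was present within 150 bases after the stop codon of 66 of the 66 genes, against 84 of 19950 protein-coding genes overall (0.421%), the histone genes included. The search was made in GRCh38 on the sense strand of each gene, the one that reads as the RNA. The following are the stem-loops of the genes with the most counts and of examples of the less common forms, shown with 5 bases on each side because they mark where the usual, non-polyadenylated 3′ end lies. The capitals are the 2 arms of the stem and the lower-case letters between them the loop.
H2AC6: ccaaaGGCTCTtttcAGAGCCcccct
H1-2: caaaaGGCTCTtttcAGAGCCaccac
H2BC12: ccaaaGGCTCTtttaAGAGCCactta
H2BC9: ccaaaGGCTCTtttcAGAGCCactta
H2BC5: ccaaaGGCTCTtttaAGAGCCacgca
H3C10: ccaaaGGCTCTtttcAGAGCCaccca
H4C8: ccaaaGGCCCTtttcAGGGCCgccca
H4C9: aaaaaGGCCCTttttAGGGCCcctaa
H2AC15: aaaaaGGTTCTtttcAGAGCCaccta

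These 16-base elements lie on chromosome 6 in the 3′ untranslated region, at chr6:26124669-26124684 for H2AC6 (plus strand), chr6:26055744-26055759 for H1-2 (minus strand), chr6:27146366-27146381 for H2BC12 (minus strand), chr6:26252055-26252070 for H2BC9 (plus strand) and chr6:26158587-26158602 for H2BC5 (plus strand). There were 10 distinct stem-loop sequences. The first form occurred in 38 genes, none of them H4, and the second in 9 genes, all of them H4. Counting from 1 at the 5′ end of the first form, the H4 form carries T4C and A13G, which replace a base pair of the stem by another, so that all 6 pairs are kept. A further 9 genes, H2BC5, H2BC12 and H2BC11 among them, differ by C10A in the loop. The 2 genes with a stem of 5 Watson-Crick pairs were H2AC11 (A13G) and H2AC15 (C3T). The stem-loop began 22 to 67 bases after the stop codon, with a median of 35.

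The genes differed in how far the deposited gene model ran past the stem-loop. Reads over the rest of a model count for its gene as well. H1-2, whose model ended 4 bases past the stem-loop, held 1337 counts. In 43 genes the model ended within 51 bases of the stem-loop, and in the other 23 it ended 212 to 29196 bases past it, introns included (14432 for H2AC6 and 12747 for H2BC5, against 4 for H1-2 and 5 for H2BC12). In GENCODE release 44, 14 of the genes had a transcript ending at least 100 bases past the stem-loop. All 14 had AATAAA or ATTAAA, the common poly(A) signals, on the sense strand in the 40 bases before an annotated transcript end. Whether that end was the distant one was not separated.

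The libraries held 15337917 to 22559998 counts in genes, and the histone genes took 613 to 1272 of these per library, 8516 in all. Mitochondrial transcripts took 7.46% to 7.66% of counts with the control siRNA, 4.99% to 5.06% under siRNA.1, and under siRNA.2 5.54% to 5.56%, and the part of this shift in the results below was not tested. Replicate libraries differed from each other by more than counting error allows (chi-square divided by its degrees of freedom, 2.76 to 4.62). LINC00885 itself was near the limit of detection, with 6, 7 and 12 counts in the control libraries, 4, 5 and 2 with siRNA.1 and 2, 0 and 4 with siRNA.2. The estimated log2 fold changes were -1.21 (siRNA.1, edgeR adjusted p = 0.376) and -2.33 (siRNA.2, adjusted p = 0.0659). All libraries of both siRNAs lay below the control libraries in counts, but neither comparison passed in edgeR, while DESeq2 gave an adjusted p of 0.0472 for siRNA.2.

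Captured histone RNA was low in TE13 cells and concentrated in few genes. Of the 66 genes, 58 had at least 1 count, 8 were at 0 in all 9 libraries (H1-6, H2AC1, H2AC15, H2AC19, H2BC1, H3C14, H3C15 and H4C7), and 43 to 50 were detected per library. A count of 0 allows up to 3 counts per library, an interval that covers counting error only. H2AC6 alone held 18.7% of all histone counts, H1-2 15.7%, H2BC12 8.63%, H2BC9 7.19% and H2BC5 6.43%, so that 4 genes carried 50.2% of the counts and 5 carried 56.6%. In contrast, 17 genes never exceeded 3 counts in any library. Expressed per length as FPKM (fragments scaled to the exonic length and to the depth of the library), 11 genes had a mean of at least 1 over the 9 libraries, led by H1-2 at 11.4, H2BC12 at 9.18 and H2AC6 at 5.91.

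The core classes, whose proteins are used in equal amounts in a nucleosome, were captured unequally. H2B genes held 40.8% of the histone counts and H2A genes 27.8%, while H1, H3 and H4 genes held 16.8%, 7.90% and 6.69%. The order was similar per length. Summed FPKM in the control libraries was 16.3 ± 1.71 for H2B, 10.5 ± 1.47 for H2A, 9.63 ± 0.127 for H1, 4.07 ± 0.179 for H4 and 3.88 ± 0.566 for H3 (SD, n = 3), and H2A and H1 did not differ beyond their spread, nor did H4 and H3.

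Summed over all 66 genes, the captured level was higher with both PARylator siRNAs than with the control. In CPM (counts divided by library size after TMM scaling), the sums were 41.8, 39.6 and 37.9 in the control libraries, 71.3, 58.6 and 67.2 with siRNA.1 and 54.6, 53.5 and 49.9 with siRNA.2. The 3 groups did not overlap. The means were 39.8 ± 1.95, 65.7 ± 6.46 and 52.7 ± 2.44 CPM (SD, n = 3), a ratio to the control of 1.65 for siRNA.1 and 1.33 for siRNA.2. No p-value was attached to this score over chosen genes. Without H2AC6 the ratios were 1.48 and 1.24, and the groups still did not overlap. In bulk RNA, a change in the share of cells that hold such transcripts and a change in the amount per cell cannot be told apart.

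**Figure D1:**
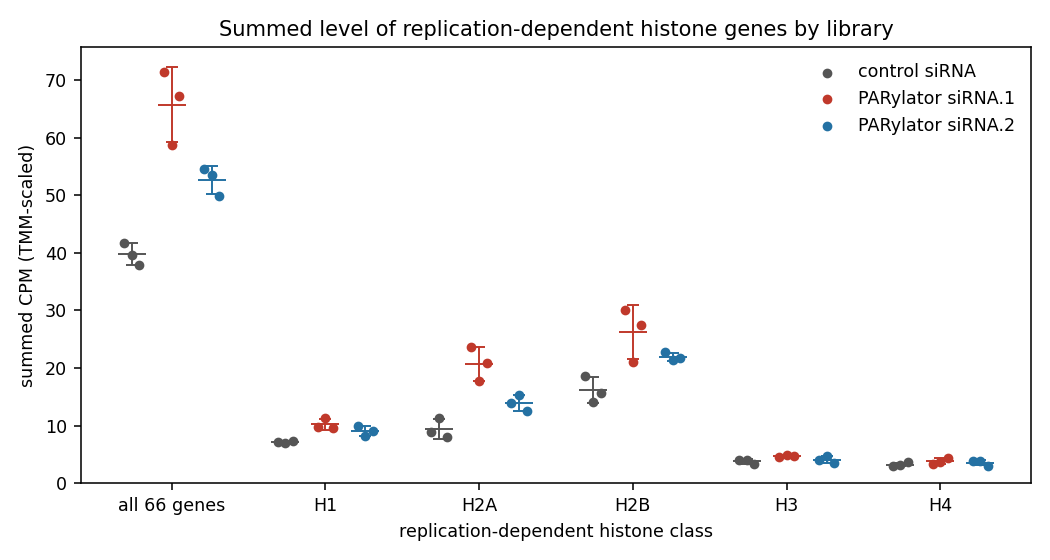
Summed TMM-scaled CPM of the replication-dependent histone genes in each library, for all 66 genes and by class, with control siRNA in grey, PARylator siRNA.1 in red and PARylator siRNA.2 in blue. Points are libraries, and bars give the mean and SD of 3 libraries. The 66-gene sums run from 37.9 to 41.8 with the control, 49.9 to 54.6 with siRNA.2 and 58.6 to 71.3 with siRNA.1, while the H4 sums of the 3 groups overlap.

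The difference was uneven across classes. H2A sums were 9.43 ± 1.75 CPM with the control, 20.7 ± 2.97 with siRNA.1 and 13.9 ± 1.36 with siRNA.2 (SD, n = 3), a ratio of 2.20 and 1.48. H2B sums were 16.1 ± 2.27, 26.2 ± 4.65 and 22.0 ± 0.708 CPM, or 1.63 and 1.36 times the control, and H1 sums were 7.15 ± 0.127, 10.3 ± 0.990 and 9.10 ± 0.851 CPM, or 1.43 and 1.27 times the control. In these 3 classes no control library overlapped a PARylator siRNA library. H3 sums were 3.79 ± 0.445, 4.73 ± 0.168 and 4.10 ± 0.621 CPM, separate from the control with siRNA.1 and overlapping with siRNA.2. H4 sums were 3.25 ± 0.320, 3.80 ± 0.523 and 3.57 ± 0.458 CPM and overlapped in both comparisons. On chromosome 1 the sum was 1.53 times the control with siRNA.1 and 1.06 times with siRNA.2, where it overlapped the control, and on chromosome 6 the ratios were 1.67 and 1.36, without overlap.

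Tested gene by gene with edgeR in a fit of all 21395 genes with a mean FPKM of at least 0.1, 51 of the 66 histone genes could be assessed. The other 15 comprised the 8 genes at 0 and 7 genes with at most 6 counts in all libraries together. With siRNA.1, 7 of the 51 rose at an adjusted p below 0.05 (13.7%, against 15% of all tested genes called higher) and 0 fell (against 15.2%). With siRNA.2, 3 rose (5.88%, against 15.8%) and 0 fell (against 15.1%), and 2 rose with both siRNAs (3.92%, against 11.1%) and 0 fell with both (against 10.2%). The share of histone genes called higher was thus near the background with siRNA.1 and below it with siRNA.2. At an unadjusted p below 0.05, edgeR gave 0 lower with siRNA.1 and 1 under siRNA.2, and DESeq2 also called 0 lower with either. For siRNA.1 the 51 genes had a median log2 fold change of 0.35, and for siRNA.2 of 0.23, where the medians over all tested genes were -0.0006 and 0.004.

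Few counts limited what could be called. Among the 10 histone genes with a mean of at least 20 counts, 5 rose with siRNA.1 (50%, against 21.4% of the 14330 tested genes with at least that mean) and 2 with siRNA.2 (20%, against 22.5%). These 10 held 182 to 1591 counts over the 9 libraries, while the 14330 had no upper limit, so the shares are not matched for depth. Among the 41 histone genes with a mean under 20 counts, 2 rose with siRNA.1 (4.88%, against 2.19%) and 1 with siRNA.2 (2.44%, against 2.26%). All 3 libraries lay above all control libraries in 12 of the 51 genes with siRNA.1 and in 9 with siRNA.2, and below them in 1 and 2, where 19% and 20.4% of all tested genes lay above and 19.5% and 19.4% below.

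**Figure D2:**
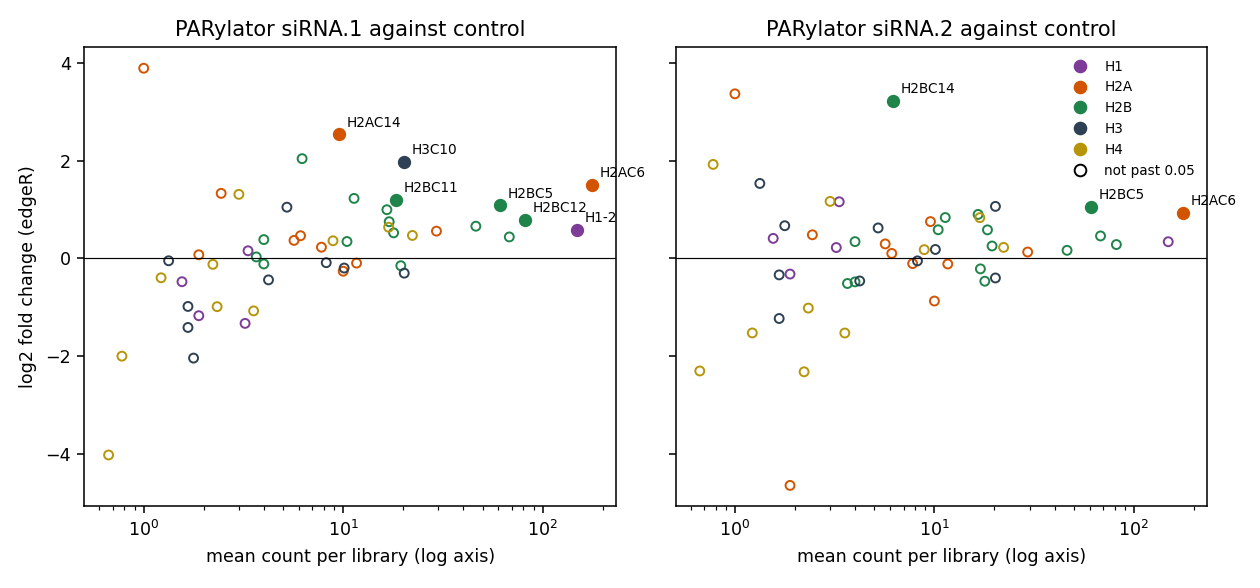
Log2 fold change against control (edgeR, vertical axis) of the 51 tested histone genes against their mean count per library (logarithmic horizontal axis), with siRNA.1 on the left and siRNA.2 on the right. Filled, labelled points passed an adjusted p of 0.05 and open points did not, and colors give the class. The 7 and 3 called genes all lie above 0, and the spread around 0 widens below about 20 counts.

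H2AC6 (ENSG00000180573, plus strand, chr6:26124145-26139116), which encodes a core histone H2A, gave the strongest evidence of change. Its counts were 72, 105 and 71 in the control libraries, 290, 198 and 258 with siRNA.1 and 207, 212 and 178 with siRNA.2. Every PARylator siRNA library exceeded every control library, and every siRNA.1 library except the second exceeded all siRNA.2 libraries in raw counts, although the siRNA.2 libraries were sequenced more deeply. Per length the means were 3.08 ± 0.862, 8.79 ± 1.04 and 5.87 ± 1.01 FPKM (SD, n = 3). The log2 fold change was 1.50 ± 0.15 (SE) with siRNA.1 (edgeR adjusted p = 2.72e-21) and 0.92 ± 0.15 with siRNA.2 (adjusted p = 2.97e-08). Its deposited model runs 14432 bases past the stem-loop. All of its 100-base windows were unique, that is, absent from the annotated transcripts of every other gene. Sequence outside annotated transcripts was not searched for copies.

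H2AC6 also differed between the siRNAs, by a log2 fold change of -0.57 ± 0.14 (SE, edgeR adjusted p = 0.000581), lower under siRNA.2, and the FPKM values of the 2 groups did not overlap. Of the 51 genes it was the 1 called lower in this comparison (1.96%, against 6.06% of all tested genes), with 0 called higher (against 6.1%) by edgeR and by DESeq2, and 0 at an unadjusted p. The call was not made by limma on log2(FPKM + 0.1), where the adjusted p was 0.126 at a fold change of -0.58. H1-2 (-0.24, adjusted p = 0.358) and H2BC12 (-0.51, adjusted p = 0.0797) also had estimates below 0 in this comparison but did not pass.

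H1-2 (ENSG00000187837, minus strand, chr6:26055740-26056470) encodes a linker histone of the somatic H1 group. Its counts were 102, 103 and 114 with the control, 167, 176 and 161 with siRNA.1 and 184, 147 and 183 with siRNA.2. The control libraries were close together and below all others. H1-2 rose with siRNA.1, by a log2 fold change of 0.58 ± 0.16 (SE, edgeR adjusted p = 0.00111), and with siRNA.2 the estimate was 0.34 ± 0.16 (adjusted p = 0.0875). Its model ends 4 bases after the stem-loop. The other H1 genes were scarcely captured, and H1-5 (0, 1 and 5 counts with the control, then 2, 0 and 5, then 6, 5 and 6) and H1-4 (2, 3 and 5, then 2, 0 and 2, then 2, 4 and 9) were the next in FPKM.

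H2BC5 and H2BC12 encode core histone H2B. H2BC5 (ENSG00000158373) had 37, 31 and 24 counts with the control, 82, 49 and 78 with siRNA.1 and 58, 64 and 125 with siRNA.2, so every control library was lowest. It rose with siRNA.1 (log2 fold change 1.08 ± 0.25, SE, edgeR adjusted p = 0.000142) and with siRNA.2 (1.05 ± 0.25, adjusted p = 0.000192), but the siRNA.2 call was lost without siRNA.2 replicate 3, the library with 125 counts (0.70, adjusted p = 0.0618). H2BC12 (ENSG00000197903) had 55, 54 and 58 counts with the control, 126, 65 and 117 with siRNA.1 and 78, 72 and 110 with siRNA.2. The second siRNA.1 library was close to the control and the others were well above it. H2BC12 rose with siRNA.1 (0.79 ± 0.21, adjusted p = 0.000957), and its estimate with siRNA.2 was 0.28 ± 0.21 (adjusted p = 0.355). Of its 100-base windows 77.5% were unique, so part of its reads could be placed elsewhere.

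Further H2B genes were measured at moderate depth. H2BC9 had 49, 30 and 68 counts with the control, 76, 54 and 80 with siRNA.1 and 88, 79 and 88 with siRNA.2, and its log2 fold changes of 0.44 (edgeR adjusted p = 0.150) and 0.46 (adjusted p = 0.119) did not pass. Without control replicate 3, its highest control library, both passed, at 0.67 (adjusted p = 0.0499) and 0.69 (adjusted p = 0.0378). H2BC21, on chromosome 1, had 47, 28 and 26 counts, then 73, 42 and 56, then 57, 51 and 36, with fold changes of 0.66 (adjusted p = 0.0606) and 0.17 (adjusted p = 0.736). It passed with siRNA.1 in the fit with a replicate block (0.68, adjusted p = 0.0497), without control replicate 1 (1.02, adjusted p = 0.00860) and without siRNA.1 replicate 2 (0.79, adjusted p = 0.0364). H2BC11 had 6, 15 and 10 counts with the control, 25, 17 and 34 with siRNA.1 and 25, 18 and 16 with siRNA.2. It rose with siRNA.1 (1.19 ± 0.47, SE, adjusted p = 0.0393), a call that DESeq2 did not make (adjusted p = 0.0531) and that was lost without siRNA.1 replicate 1 or 3 or control replicate 1 or 3, with a highest adjusted p of 0.210.

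**Figure D3:**
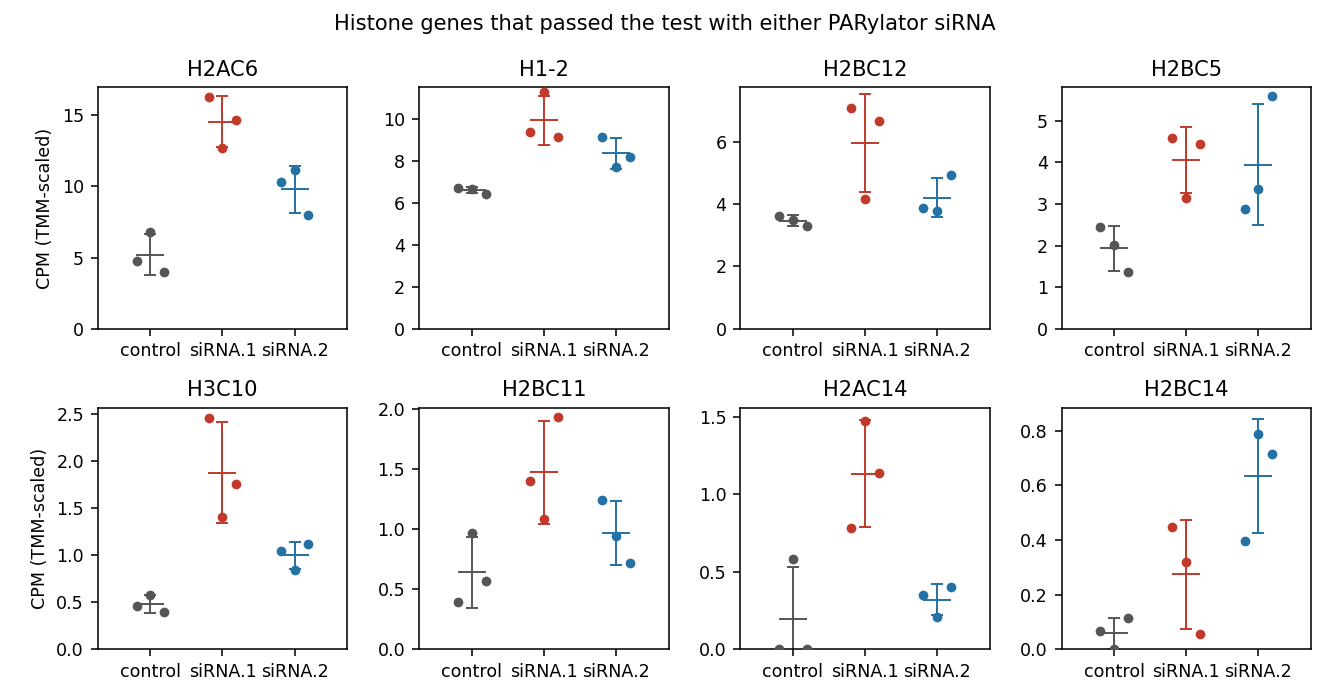
TMM-scaled CPM in each library of the 8 histone genes that passed the test with either PARylator siRNA, each panel starting at 0 with its own scale, with control siRNA in grey, siRNA.1 in red and siRNA.2 in blue. Points are libraries, and bars give the mean and SD of 3 libraries. H2AC6, H1-2, H2BC12, H2BC5 and H3C10 have all control libraries below all others, and the control libraries of H2BC14 hold 2 counts or fewer.

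The remaining called genes had low counts. H3C10 (ENSG00000278828), an H3 gene, had 7, 9 and 7 counts with the control, 44, 22 and 31 with siRNA.1 and 21, 16 and 25 with siRNA.2, without overlap between the control and either siRNA. It rose with siRNA.1 (log2 fold change 1.97 ± 0.47, SE, edgeR adjusted p = 0.000201), and with siRNA.2 the estimate was 1.06 ± 0.49 (adjusted p = 0.0864). H2AC14 had 0, 9 and 0 counts, then 14, 23 and 20, then 7, 4 and 9, and rose with siRNA.1 (2.53 ± 0.73, adjusted p = 0.00245). Only 38.2% of its 100-base windows were unique and 61.8% were shared with H2AC13, so its counts are uncertain, and the size of its change depended on control replicate 2, which held all 9 of the control counts. With siRNA.2 its estimate was 0.75 (adjusted p = 0.539), and against siRNA.1 it was -1.78 (adjusted p = 0.0509).

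H2BC14 had 1, 0 and 2 counts with the control, 8, 5 and 1 with siRNA.1 and 8, 15 and 16 with siRNA.2. Its control libraries were at or under the floor of 3 counts per library, against which it was at least 3.39-fold higher with siRNA.2 (edgeR adjusted p = 0.00571), and it did not pass with siRNA.1 (adjusted p = 0.157). At the other extreme, H2AC12 had 4, 2 and 2 counts with the control, 4, 3 and 2 with siRNA.1 and 0 in all siRNA.2 libraries. Its mean control level was 1.15 times the floor, but control libraries with 2 counts lay under the floor themselves, so this is not a bound. H2AC12 missed the threshold with siRNA.2 (edgeR adjusted p = 0.0593). The rule for named genes did not set H2AC11, H2AC12, H2BC4, H2BC11, H2BC14, H2BC21, H4C3, H2AJ, H2AZ1, H2BU1, H3-3B, H3-4 and H4-16, which were named after their values were seen.

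Of 10 tested H4 genes, 0 passed with either siRNA in edgeR or DESeq2, and 0 at an unadjusted p below 0.05 in edgeR. All of them except H4C9 had a mean under 20 counts. Of all tested genes under that mean, edgeR called 2.19% higher and 1.49% lower with siRNA.1. With siRNA.2 the shares were 2.26% and 1.67%, so a count of 0 among so few genes is near the background. Limma on log2(FPKM + 0.1) called H4C3, with 1 to 5 counts in every library, higher with both. H4C9 had 18, 9 and 24 counts with the control, 19, 24 and 31 with siRNA.1 and 31, 22 and 22 with siRNA.2. H4C8 had 5, 14 and 12, then 17, 15 and 19, then 18, 28 and 24, with log2 fold changes of 0.64 (edgeR adjusted p = 0.378) and 0.83 (adjusted p = 0.206). H4C1 had 3, 3 and 11, then 0, 4 and 4, then 0, 4 and 3. The groups of H4C9 and H4C1 overlapped throughout. Among H3 genes other than H3C10, H3C3 (13, 3 and 7 counts, then 6, 7 and 10, then 15, 9 and 4) and H3C1 (0, 7 and 2, then 8, 8 and 4, then 9, 3 and 6) were near or below 10 counts on average, and overlapped as well. H2AC20, an H2A gene of chromosome 1, had 11, 27 and 29, then 42, 28 and 34, then 27 to 38 counts, with fold changes of 0.56 (adjusted p = 0.252) and 0.13 (adjusted p = 0.843).

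Grouped by 3′ end, the 23 genes whose model ran at least 100 bases past the stem-loop held 60.0% of the histone counts, with a median of 152 counts per gene, and the 43 genes with a short end held the rest, with a median of 20. Per length the order of the sums was the other way, with 13.5 ± 1.23 FPKM in the control libraries for long ends and 30.9 ± 0.724 for short ends (SD, n = 3). These sums run over 23 and 43 genes, and the part of model length in the order was not tested. Long-end genes summed to 22.2 ± 1.80 CPM with the control, 40.3 ± 5.16 (siRNA.1) and 32.2 ± 3.15 (siRNA.2), a ratio of 1.81 and 1.45. Short-end genes summed to 17.5 ± 0.429, 25.5 ± 1.30 and 20.4 ± 1.39 CPM, a ratio of 1.45 and 1.17. Both kinds were therefore above the control without overlap. Without their leading genes, H2AC6 and H1-2, the ratios were 1.51 and 1.32 for long ends and 1.42 and 1.11 for short ends, with the last overlapping the control. The difference between the 2 kinds was not tested.

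**Figure D4:**
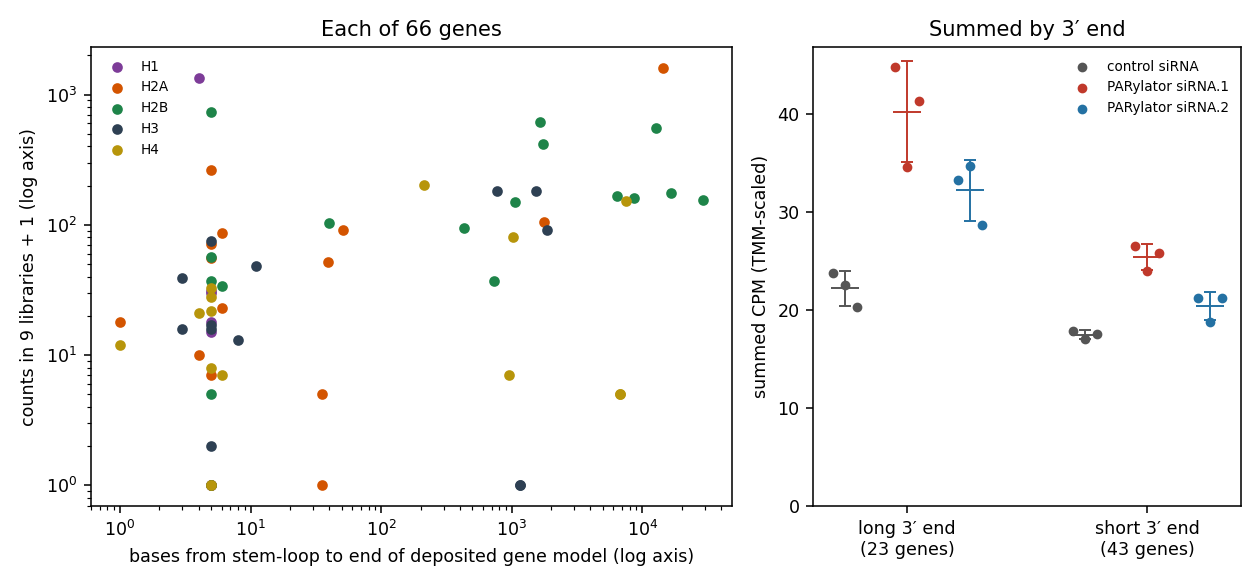
Left, counts in the 9 libraries plus 1 (logarithmic axis) of each of the 66 histone genes against the bases from its stem-loop to the end of the deposited gene model (logarithmic axis), colored by class. Right, summed TMM-scaled CPM of the 23 genes with a long 3′ end and the 43 with a short one in each library, with mean and SD of 3 libraries. Long-end genes have more counts per gene (median 152 against 20), and in both kinds the control libraries lie below all others.

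Many H2A and H2B genes are arranged head to head, with start sites that share a short promoter region. There were 10 such pairs with starts 215 to 283 bases apart, and in 6 of them the H2B gene had more counts. In the 9 pairs with counts in both genes, the partner with more had 1.54 to 43.2 times the counts of the other, and in 5 pairs the partners were within 2-fold. In the pairs with the highest ratios, H2AC6 had 1591 counts and its partner H2BC4 161, and H2BC12 had 735 while its partner H2AC12 had 17. H2BC4 had 14, 15 and 18 counts with the control, 24, 26 and 21 with siRNA.1 and 17, 12 and 14 with siRNA.2, and did not pass with either siRNA. H2AC11, the partner of H2BC11, also did not pass.

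Near-identical copies touched few of the counts. Less than 50% of the 100-base windows were unique in 13 genes, among them the pairs H2AC18 and H2AC19, H3C14 and H3C15, H4C11 and H4C12, and H4C14 and H4C15, and these genes held 2.96% of the counts. A further check found 7 genes with exon bases shared with another gene, such as H3C12 with H2AC17 and H2BC18 with FCGR1A. Of these 7 genes H2BC18 held the most counts, 153. With the 53 genes in which at least 50% of the windows were unique, the summed ratios were 1.65 and 1.34. This sum still holds H2BC18, and no sum was made without the genes that share exon bases.

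The search also found 7 histone genes outside the symbols used, H2AW, H2BU1, H4-16 and H3-2 with no mismatch, H3-4 and H2AX with 1 and H2AJ with 2. The rows H2AW and H2BU1 are named H2AC25 and H2BC26 in GENCODE release 44, matched by identifier, and form a head-to-head pair of H2A and H2B genes on chromosome 1. Their stem-loops match the common form, as the following show.
H2AW: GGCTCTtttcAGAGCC
H2BU1: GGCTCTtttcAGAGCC

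The elements lie at chr1:228457369-228457384 (minus strand) and chr1:228458538-228458553 (plus strand). H2AW had 83, 55 and 84 counts with the control, 365, 276 and 304 with siRNA.1 and 280, 269 and 319 with siRNA.2. It rose with both siRNAs, by log2 fold changes of 2.01 ± 0.14 (SE, edgeR adjusted p = 1.72e-42) and 1.62 ± 0.14 (adjusted p = 2.66e-27). Like H2AC6 it was lower under siRNA.2 than under siRNA.1 (-0.39 ± 0.12, adjusted p = 0.0155), a call lost without siRNA.1 replicate 1 (fold change -0.31) or siRNA.2 replicate 1 or 3 (adjusted p = 0.0541 and 0.0507) and not made by limma on log2(FPKM + 0.1) (adjusted p = 0.127). H2BU1 had 32, 14 and 19, then 79, 63 and 99, then 85, 58 and 89 counts, and rose by 1.80 (adjusted p = 2.71e-10) and 1.47 (adjusted p = 3.83e-07). H4-16, named H4C16 in that release, also carries the stem-loop and had 9 to 16 counts in the control libraries and 4 to 27 in the others. H3-4 went the other way, with 2, 8 and 5 counts with the control, 3, 2 and 0 with siRNA.1 and 0 in all siRNA.2 libraries, and was called lower with siRNA.2 by edgeR (adjusted p = 0.0131), though not without control replicate 2 (adjusted p = 0.0693) or siRNA.2 replicate 3 (adjusted p = 0.0522). H2AX, the variant phosphorylated at DNA breaks, did not pass with either siRNA (adjusted p = 0.656 and 0.151), and H3-2 had 1 count in all.

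Replication-independent histone genes, whose mRNAs are mostly polyadenylated and which are expressed outside S phase, were set beside them. Of 14 tested of a list of 15, to which H2AW, H2BU1 and H4-16 had been assigned, 6 rose and 3 fell with siRNA.1, and 5 rose and 3 fell with siRNA.2. The median log2 fold changes were 0.04 with both. Over all tested genes with a mean of at least 20 counts, 21.4% rose and 22% fell with siRNA.1, and 22.5% rose and 21.7% fell with siRNA.2. H4-16 and H3-4 of the list lay under that mean, and H3-4 was among those called lower with siRNA.2. H2AJ, an H2A variant with a stem-loop of 2 mismatches, rose by 0.37 (adjusted p = 1.49e-06) and 0.33 (adjusted p = 1.74e-05). H2AZ2, a copy of the H2A.Z variant, fell with siRNA.1 from 18.3 ± 1.04 to 13.1 ± 0.837 FPKM (-0.51, adjusted p = 7.17e-19), and was at 17.8 ± 0.205 with siRNA.2 (-0.06, adjusted p = 0.496). The difference between the siRNAs was 0.45 ± 0.05 (adjusted p = 1.23e-14). H3-3A, a gene for the variant H3.3 with near-identical processed copies that can share its reads, was at 7.72 ± 0.442 FPKM with the control, 4.90 ± 0.129 with siRNA.1 and 6.37 ± 0.159 with siRNA.2. It fell with both siRNAs (-0.68, edgeR adjusted p = 8.66e-11, and -0.29, adjusted p = 0.00995, the latter lost without control replicate 3 at 0.0683), and the difference between them was 0.40 ± 0.10 (adjusted p = 0.00113). The paralogs of H3-3A and H2AZ2 in the list, H3-3B and H2AZ1, were more abundant and were not called lower with either siRNA. H3-3B was at 91.9, 96.4 and 92.6 FPKM and did not pass with either. H2AZ1 was at 120, 113 and 132 FPKM. It did not pass with siRNA.1 (edgeR adjusted p = 0.0605) and rose with siRNA.2 (adjusted p = 0.00839).

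**Figure D5:**
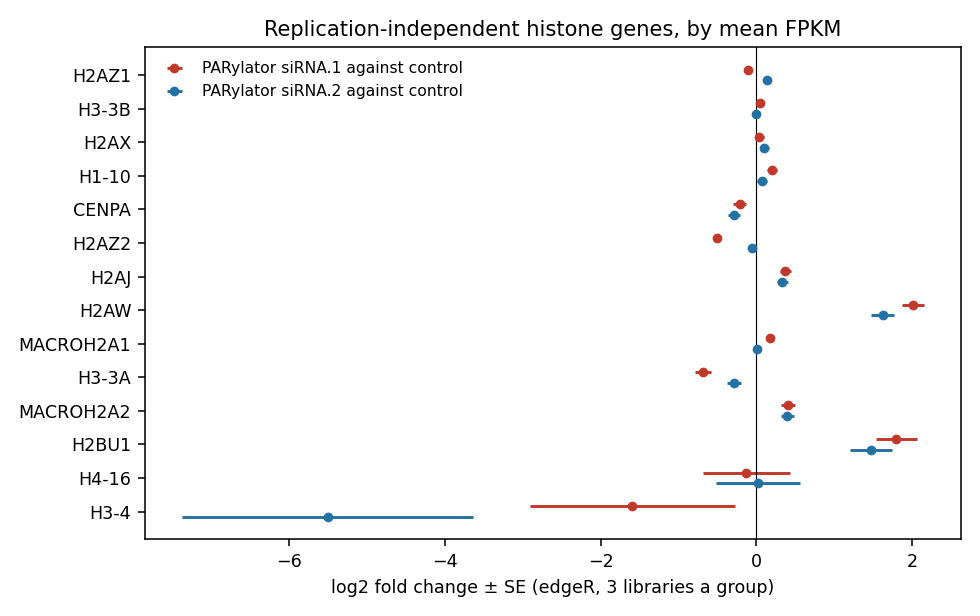
Log2 fold change against control with its SE (edgeR) of the 14 tested genes of the replication-independent histone list, ordered by mean FPKM with the highest at the top, for PARylator siRNA.1 in red and siRNA.2 in blue. H2AW and H2BU1 lie to the right of 0 with both siRNAs, at 1.47 to 2.01, while H3-3A lies left of 0 with both. The estimate of H3-4 with siRNA.2 rests on libraries at 0 and depends on the prior count.

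The genes that form the histone 3′ end had small median changes. Of 18 processing genes, 2 rose and 3 fell with siRNA.1, and 7 rose and 1 fell with siRNA.2, with median log2 fold changes of 0.04 and 0.08. The shares over all tested genes with a mean of at least 20 counts were 21.4% and 22%, then 22.5% and 21.7%. SLBP, which binds the stem-loop printed above, was at 60.0 ± 4.58 FPKM with the control, 65.8 ± 3.39 with siRNA.1 and 66.8 ± 1.30 with siRNA.2 (SD, n = 3). Its fold change was 0.10 with siRNA.1 (edgeR adjusted p = 0.133) and it rose by 0.14 with siRNA.2 (adjusted p = 0.0241), a call that DESeq2 did not make (adjusted p = 0.0614) and that was lost without control replicate 1 (adjusted p = 0.294) or siRNA.2 replicate 2 or 3. ZNF473, which links SLBP to the U7 snRNP, rose by 0.44 (adjusted p = 3.19e-06) and 0.42 (adjusted p = 7.56e-06). Among the Sm proteins, SNRPE rose with siRNA.2 (0.45, adjusted p = 3.75e-07) and had a fold change of 0.17 with siRNA.1 (adjusted p = 0.113). SNRPD3 fell with both (-0.18, adjusted p = 0.0144, lost without siRNA.1 replicate 2 at 0.169, and -0.34, adjusted p = 3.98e-07). NUDT21, a subunit of cleavage factor Im that helps to choose poly(A) sites, fell with siRNA.1 (-0.35, adjusted p = 2.98e-08), and its fold change was -0.10 with siRNA.2 (adjusted p = 0.191).

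Of 10 genes of the histone locus body and of histone transcription, 2 rose and 3 fell with siRNA.1, and 1 rose and 0 fell with siRNA.2 (DESeq2 also gave 0 lower, and edgeR gave 1 lower at an unadjusted p below 0.05), with medians of -0.05 and 0.02. The edgeR shares over all tested genes with a mean of at least 20 counts were 21.4% and 22%, then 22.5% and 21.7%. NPAT, the coactivator that organises histone transcription at the locus body, fell with siRNA.1 (-0.26, edgeR adjusted p = 0.000908), a call lost without siRNA.1 replicate 1 (adjusted p = 0.0743), and its estimate with siRNA.2 was -0.15 (adjusted p = 0.0616). CASP8AP2, the locus body protein also called FLASH, was at 6.78, 6.77 and 6.78 FPKM (fold changes -0.03 and -0.01, adjusted p = 0.805 and 0.929). E2F1, a transcription factor of the G1/S transition, rose with both (0.42, adjusted p = 1.99e-07, and 0.37, adjusted p = 5.43e-06). YY1 was at 17.5, 16.1 and 18.6 FPKM and POU2F1, which encodes Oct-1, at 4.73, 5.42 and 4.90.

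In the histone mRNA decay list, 5 of 12 genes rose and 1 fell with siRNA.1, and 4 rose and 1 fell with siRNA.2, with medians of 0.08 for both. The shares over all tested genes with a mean of at least 20 counts were 21.4% and 22%, then 22.5% and 21.7%. PNPT1, the mitochondrial polynucleotide phosphorylase, rose by log2 fold changes of 0.80 (edgeR adjusted p = 2.85e-57) and 0.93 (adjusted p = 8.24e-79). LSM1, of the ring that binds oligouridylated histone mRNA during decay, rose by 0.44 (adjusted p = 3.46e-08) and 0.35 (adjusted p = 1.81e-05). TUT7, a terminal uridylyltransferase, fell by 0.69 (adjusted p = 2.58e-26) and 0.57 (adjusted p = 8.91e-19) on the log2 scale. Of 19 histone chaperone genes, 5 rose and 5 fell with siRNA.1 and 5 rose and 4 fell with siRNA.2, beside the same shares over all tested genes as for the decay list. HIRA, which deposits H3.3, rose by 0.59 (adjusted p = 3.46e-08) and 0.72 (adjusted p = 2.84e-12). NASP, which holds soluble H3 and H4, rose by 0.16 (adjusted p = 0.000780) and 0.32 (adjusted p = 7.36e-13). ASF1B, the chaperone paralog of proliferating cells, fell by 0.58 (adjusted p = 1.65e-15) and 0.19 (adjusted p = 0.0145, lost without siRNA.2 replicate 1 or control replicate 3, at 0.0786 and 0.0782).

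Since these histone genes are expressed in S phase, S phase and G1/S genes were set beside them. Of 20, 5 rose and 6 fell with siRNA.1, and 11 rose and 2 fell with siRNA.2, with median log2 fold changes of 0.06 and 0.21. The shares over all tested genes with a mean of at least 20 counts were 21.4% and 22%, then 22.5% and 21.7%. RRM2, a ribonucleotide reductase subunit, rose by 0.24 (edgeR adjusted p = 5.42e-07) and 0.48 (adjusted p = 4.00e-26), and MCM5, of the replicative helicase, by 0.24 (adjusted p = 2.01e-06) and 0.34 (adjusted p = 2.41e-12). GINS2, a helicase cofactor, rose with siRNA.2 (0.45, adjusted p = 3.60e-10) and had a fold change of 0.13 with siRNA.1 (adjusted p = 0.153). The histone sums were higher under siRNA.1 than under siRNA.2, while 10 of these 20 genes were higher and 0 lower under siRNA.2 than under siRNA.1 by edgeR (9 and 0 by DESeq2, and 14 and 0 by edgeR at an unadjusted p below 0.05). Of all tested genes with a mean of at least 20 counts, edgeR called 8.97% higher and 8.88% lower in that comparison. The part of the S phase and G1/S genes in the histone result was not tested.

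RNAs that carry no poly(A) tail were examined for carry-over into the libraries. Of 27 such genes 13 were at 0 in every library, and of the 11 tested 0 rose and 1 fell with each siRNA by edgeR, as by DESeq2 and at an unadjusted p below 0.05. The edgeR shares over all tested genes were 15% and 15.2% with siRNA.1 and 15.8% and 15.1% with siRNA.2. The summed level of the 27 genes was 19.8 to 21.3 CPM with the control, 13.7 to 17.5 under siRNA.1 and 13.4 to 15.6 under siRNA.2. RN7SL1, the RNA of the signal recognition particle, held most of these counts, 2518 in all. It fell with siRNA.2 (log2 fold change -0.47, adjusted p = 0.000285) and with siRNA.1 (-0.32, adjusted p = 0.0204), the latter lost without siRNA.1 replicate 2 or control replicate 2 or 3, at up to 0.265. SCARNA5 and RNU4-2, the next by adjusted p, had 11 and 5 counts in all. The part of carry-over in the histone result was not tested.

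The labelled cell type was checked against its markers. Of 8 squamous epithelial markers all were detected, with summed levels of 810 to 844 FPKM in the control libraries, 628 to 664 under siRNA.1 and 653 to 665 under siRNA.2. KRT5, a basal keratin, was at 142, 39.97 and 55.8 FPKM, SFN at 305, 180 and 182 and KRT6A at 78.7, 102 and 118. The 6 blood cell markers summed to 5.09 to 5.7, 5.96 to 6.79 and 5.58 to 6.26 FPKM. In CPM these sums were 16.4 to 17.9, 15.2 to 17.3 and 13.9 to 15.3. PTPRC, the leukocyte antigen CD45, was at 0.0333, 0.153 and 0.147 FPKM, LYZ at 0.317, 2.79 and 3.08 and LAPTM5 at 4.95, 3.00 and 2.40. Of the 7 fibroblast and endothelial markers, COL1A1 was at 1.99, 1.39 and 1.40 FPKM, CDH5 at 0.850, 0.583 and 0.277 and VWF at 0.503, 0.117 and 0.130. PTPRC and LYZ rose and LAPTM5 fell with both siRNAs, and COL1A1, CDH5 and VWF fell with both. The other blood cell markers, CD3E, CD79A and TYROBP, had 4, 10 and 37 counts in all libraries together, and the other fibroblast and endothelial markers, COL3A1, PDGFRB, DCN and PECAM1, had 46, 39, 2 and 76. Their part in the histone result was not tested.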

How the data were processed

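RNA-seq was carried out by the authors on poly(A)+ RNA of 9 TE13 libraries, aligned with STAR and counted with featureCounts against GRCh38. Software versions, annotation release and strandedness were not given in the sources used here. The authors deposited raw counts per gene and FPKM for 60605 rows in 1 table, of which 20014 have no symbol; FPKM was recomputed from counts and deposited exonic length for 100% of values within rounding. No column of per-library values was left unused.

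Libraries were grouped by label. Genes with a mean FPKM of at least 0.1 (21395) were tested in a single fit of the 3 groups with edgeR 4.0.16 (TMM, quasi-likelihood test) in R 4.3.3, with Benjamini-Hochberg adjustment over all genes and a threshold of 0.05. DESeq2 1.42.0, which the study used, and limma 3.58.1 on log2(FPKM + 0.1) or log2(FPKM + 1) were alternatives, and the test was checked on simulated data. With 15337917 to 22559998 counts per library, few reads fell on each histone gene. P-values measure the spread between these libraries.

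Stem-loops were searched in GRCh38 after the stop codons of GENCODE release 44, where 64 histone genes were found by identifier and 2 by symbol, 43 with the deposited coordinates. Coordinates are those of the table or of the search.

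The genes, lists and tests were chosen with earlier results of these data known. Named genes were the 3 with the highest FPKM per class, up to 5 per direction passing with both siRNAs, those passing between siRNAs, SLBP, NPAT, CASP8AP2, ZNF473, the 3 of each other list with the lowest adjusted p, and LINC00885. A gene of the replication-independent histone list is not reported here. Same-numbered libraries did not deviate together, so numbers were not used for pairing.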

Additional observations from a re-analysis of the deposited data

Results flagged for a closer look

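Of 56 genes named by the rule or given with a fold change, 15 differed between siRNA.2 and siRNA.1 by the edgeR test of the difference itself, 12 higher and 3 lower with siRNA.2. Over all tested genes 6.1% were higher and 6.06% lower, and the 56 were partly chosen by their adjusted p. H2AC6 was lower with siRNA.2, at a log2 fold change of -0.57 (adjusted p = 0.000581), with 8.79 ± 1.04 FPKM under siRNA.1 and 5.87 ± 1.01 under siRNA.2 (SD, n = 3). H2AW (-0.39, adjusted p = 0.0155) and CDH5 (-1.05, adjusted p = 0.000782) were also lower with siRNA.2. Limma on log2(FPKM + 0.1) made none of these 3 calls (adjusted p = 0.126 for H2AC6, 0.127 for H2AW and 0.0841 for CDH5). Among other histone genes, H2AZ2 (0.45, adjusted p = 1.23e-14) and H3-3A (0.40, adjusted p = 0.00113) were higher with siRNA.2. Of the genes in the lists for histone mRNA processing, transcription and decay, the differences were 0.25 for NUDT21 (adjusted p = 0.000389), 0.28 for SNRPE (adjusted p = 0.00716), 0.22 for YY1 (adjusted p = 0.000184) and 0.13 for the mitochondrial PNPT1 (adjusted p = 0.0444). The PNPT1 call was lost under the replicate block (adjusted p = 0.0775), RLE size factors (0.0683), no TMM (0.0755) and no filter beyond 1 count (0.0659). It was also lost under limma on log2(FPKM + 0.1) (adjusted p = 0.115) and without siRNA.1 replicate 1 or 3 or any siRNA.2 library (adjusted p up to 0.227). The SNRPE call was lost without siRNA.1 replicate 2 (adjusted p = 0.128) and under limma on log2(FPKM + 0.1) (adjusted p = 0.0856). The chaperone genes ASF1B and NASP differed by 0.39 (adjusted p = 1.03e-06) and 0.16 (adjusted p = 0.00283), and the S phase genes RRM2 and GINS2 by 0.24 (adjusted p = 1.79e-06) and 0.32 (adjusted p = 4.84e-05). The keratin genes KRT5 and KRT6A differed by 0.50 (adjusted p = 1.62e-27) and 0.23 (adjusted p = 3.04e-06). No library was tested as standing apart, because each group holds 3.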

How the results depend on the processing

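The counts of histone genes called were compared over DESeq2, limma, RLE size factors, no TMM, other filters, fits of the 2 groups alone, a replicate block and leaving out each library. With siRNA.1, 5 to 9 rose and 0 fell over the settings other than leaving out a library, and 6 to 8 rose when each library was left out. With siRNA.2, 2 to 6 rose: 6 under limma on log2(FPKM + 0.1), and 2 to 4 when each library was left out. Under both limma settings 1 gene fell with siRNA.2 (H2AC12). Between the siRNAs, 2 were lower under both limma settings (H2AC12 and H2BC4), and 2 with a mean FPKM of at least 1 or with only the 2 groups (H2AC6 and H2AC14), and 1 to 2 when each library was left out, with 2 without siRNA.1 replicate 2 (H2BC12 added) or control replicate 1 or 3 (H2AC14 added). Why these counts moved was not tested. The log2 ratio of summed CPM, 0.73 with siRNA.1 and 0.41 with siRNA.2, was 0.57 and 0.31 without H2AC6, and ranged over 0.66 to 0.80 and 0.37 to 0.44 when each library was left out.

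With the replicate number as a block, 8 rose with siRNA.1 (H2BC21 added) and 3 with siRNA.2. The numbers gave no pairing, since same-numbered libraries correlated at -0.194 to 0.107 in their deviations from group means (9 pairs) and differently numbered ones at -0.0776 to 0.184 (18 pairs).

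Single genes changed sign only when a library was left out, within ranges of -0.16 to 0.33 for H2AC20 and -0.051 to 0.53 for H2BC21 with siRNA.2, and for CASP8AP2 of -0.083 to 0.016 under siRNA.1 and -0.045 to 0.035 under siRNA.2. H2AC14 ranged over 1.92 to 7.37 (siRNA.1) and 0.14 to 5.58 (siRNA.2), the highest of both without control replicate 2. Depth limits these results, since 41 of the 51 tested histone genes had a mean under 20 counts per library.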

Other observations

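The genes whose log2(FPKM + 0.1) followed the log2 of the summed histone FPKM most closely over the 9 libraries, of 12521 genes with a mean FPKM of at least 1, were MRPS18A (Pearson r = 0.981), JPT1 (0.981), ANKRD1 (0.980), DCAF10 (0.979) and LNCAROD (0.975). These values are a description. The 9 points fall into 3 groups of libraries, and genes that differ between the groups in the same order score highly.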
